A study of Cricetulus griseus with 8 samples.

Results

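A set of 10 well-known target genes of the hypoxia-inducible factors (HIF) that lie outside glycolysis were followed in phagocytes that met dying cells. The set held the hydroxylase genes Egln1, Egln3, P4ha1 and P4ha2, the demethylase gene Kdm3a, and the mitochondrial and growth-control genes Bnip3 and Ddit4. It also held the secreted factors Vegfa and Adm, and Ndrg1. All 10 were listed by symbol, with earlier results of these data known, and looked up in a deposited table of 26776 named genes. Of the 10 listed genes, 9 stood in the table under their symbol. The other, Egln3, was found under LOC100754377 through its RefSeq gene ID. All 9 genes listed by symbol passed the filter of the test, a mean of at least 10 normalized counts, and Egln3 had no reads.

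The RNA came from LR73 cells, a fibroblast line of the Chinese hamster by its labels, with 4 libraries from cultures without other cells (alone) and 4 from co-cultures to which apoptotic Jurkat cells had been added. Jurkat is a human leukemic T cell line that the labels call lymphoma, and its cells had been given 1500 mJ of UV-C light and kept for 4 h before they joined the phagocytes. All cultures used alpha-MEM with fetal bovine serum, and no source used here gives the oxygen tension or the length of the co-culture. By the design text the 4 libraries of each condition are biological replicates, but how the cultures were kept apart is not described, so p-values measure the spread between these libraries. The names of the deposited columns carry the letters GFP, which the labels do not explain.

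HIF is a dimer of an oxygen-regulated alpha subunit (HIF-1 alpha from Hif1a, HIF-2 alpha from Epas1) and the stable partner ARNT. In the presence of oxygen, prolyl hydroxylases of the EGLN family mark the alpha subunit, and the ubiquitin ligase that contains VHL then directs it to destruction. When oxygen is short, or when the hydroxylases lack iron or 2-oxoglutarate, the alpha subunit persists and switches on genes for glycolysis, vessel growth, mitophagy and matrix synthesis, among them Egln1 and Egln3, which feed back on HIF itself. Growth factor signalling can also raise HIF-1 alpha when oxygen is ample. In fibroblasts, HIF is known in particular for its control of the enzymes that mature collagen.

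With apoptotic cells, 4 of the 9 tested genes rose and none fell. P4ha1, P4ha2, Bnip3 and Egln1 each rose by 16.5 to 27.8%. Over all genes tested, 11.7% passed the same threshold (limma, adjusted p under 0.05), 6.36% as a rise and 5.31% as a fall. The same 4 genes were called as rises by edgeR, beside 6.20% of genes higher, 5.37% lower and 11.6% in all, and by DESeq2, beside 6.71% higher, 5.47% lower and 12.2% in all. Of the other tested members, Vegfa, Kdm3a, Ndrg1 and Ddit4 changed by between -5.66 and -0.465%, and Adm by 14.0%, and none of these passed. The groups did not overlap in the 4 genes that rose and overlapped in the other 5, whereas over all tested genes 21.2% had groups that did not overlap, 11.4% with the co-cultures higher and 9.72% with them lower. The 4 genes were higher in the authors' deposited table too, with log2 fold changes of 0.265 for P4ha1, 0.315 for P4ha2, 0.281 for Bnip3 and 0.202 for Egln1. Of all genes with an adjusted p in the authors' deposited table, 12.2% passed the same threshold. In bulk RNA such as this, a change in the mix of cells and a change in RNA per cell cannot be told apart.

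**Figure D1:**
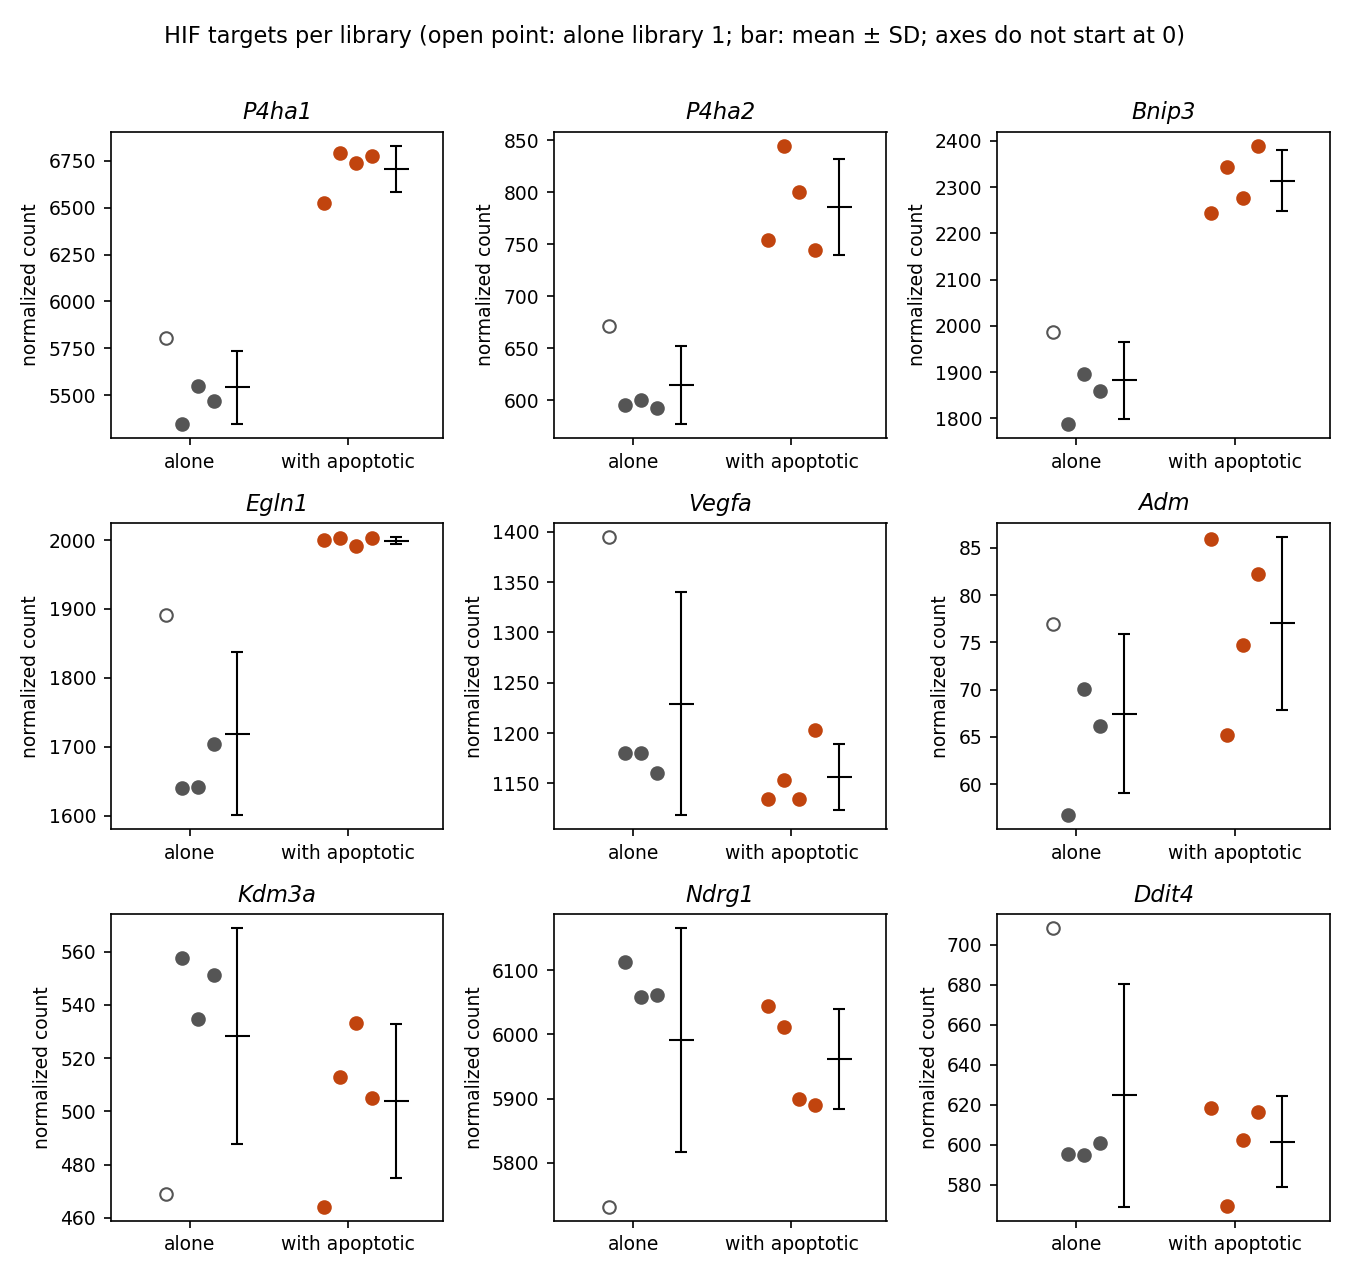
Normalized counts of the 9 detected HIF targets in each library as points, for phagocytes alone and with apoptotic cells, with bars for the group mean and its SD over 4 libraries. P4ha1, P4ha2, Bnip3 and Egln1 (first 4 panels) are higher in all co-culture libraries than in any library of cells alone, and the open point, alone library 1, is the highest or lowest of its group in each of the 9 genes.

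The libraries held 22.7 to 29.7 M reads in named genes. Alone library 1 stood apart on the leading principal component of all tested genes, at -25.1 against -9.13 to -5.65 for the other libraries of cells alone and 9.82 to 13.6 for the co-cultures. It was the highest of its group for 7 of the 9 detected members and the lowest for the other 2, Kdm3a and Ndrg1. The plot of changes gives every detected member with and without this library. Without it, 26.0% of all tested genes passed the limma threshold. Of 15 T cell markers, 13 had 5 or fewer reads in all libraries of cells alone together, with 6 reads against 42 in the co-cultures. Cd3d, Cd3g, Cd2 and Lcp2 were among the 5 at 0 in all libraries, Cd3e had 0 against 2 reads and Ptprc 3 against 14. The summed level of the whole list ran from 208 to 280.1 normalized counts alone and from 190.1 to 220.1 with apoptotic cells, most of it from Lat and Cd28, which LR73 cells held on their own. These trace reads of T cell markers were more numerous in the co-cultures. The added Jurkat cells were human, and how far human reads are counted under hamster genes was not tested. The trace reads therefore do not measure how much Jurkat RNA the libraries held, and the part of such RNA in the members' values was not tested. Of 13 fibroblast markers found, Vim, Fn1 and Col6a1 were abundant, while the defining type I collagen genes Col1a1 and Col1a2 had no more than 6 reads per group. The summed level of the 13 fibroblast markers ran from 156793 to 160711 normalized counts alone and from 183427 to 185330 with apoptotic cells. Most of it came from Vim and Fn1, so the sum does not speak for the whole list. Of 10 tested fibroblast markers, 2 rose (Col6a1 and Vim), beside 6.36% of all tested genes, and 1 fell, beside 5.31%. The fall was in Dcn (log2 fold change -0.31, adjusted p = 0.0022 in limma), and 7 did not pass.

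Both collagen prolyl 4-hydroxylase genes among the members rose. P4ha1 and P4ha2 encode alternative catalytic subunits of the enzyme that hydroxylates proline in procollagen, a step that the collagen triple helix needs to be stable. P4ha1 stood at 5804, 5345, 5550.3 and 5470.0 normalized counts in libraries 1 to 4 of cells alone and at 6528, 6792, 6741 and 6776 in those of the co-cultures. The lowest co-culture library lay well above the highest library of cells alone. Means were 5542 ± 194 and 6709 ± 122 (SD, n = 4 per group), which is a log2 difference of 0.28 (SE 0.03, 95% interval 0.20 to 0.35, adjusted p = 0.00071 in limma).

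P4ha2 stood at 671, 595, 599.8 and 593 normalized counts alone and at 755, 845, 800.1 and 745 with apoptotic cells. Libraries 2 to 4 of cells alone lay close together and library 1 lay above them, but below every co-culture. Means were 615 ± 37.8 and 786 ± 46.1 (SD, n = 4 per group), and the log2 fold change of 0.35 (SE 0.06, 95% interval 0.22 to 0.48, adjusted p = 0.00417 in limma) was the largest point estimate among the members, an increase of 27.8%. Only 3.25% of all tested genes had a more positive change. The log2 fold changes were 0.40 for P4ha2 and 0.30 for P4ha1 without alone library 1. The obligate partner of these subunits, protein disulfide isomerase from P4hb, averaged 29807 ± 519 normalized counts alone and 30335 ± 321 in co-culture (log2 fold change 0.03, SE 0.03, adjusted p = 0.583 in limma). The third catalytic subunit gene, P4ha3, named after its values were seen, had a log2 fold change of 0.03 (adjusted p = 0.854 in limma), which was -0.05 without alone library 1.

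Egln1 encodes PHD2, the main oxygen-dependent prolyl hydroxylase of HIF-1 alpha and itself a HIF target. It stood at 1892, 1639.9, 1641 and 1703 normalized counts in libraries 1 to 4 of cells alone and at 1999.9, 2003, 1992 and 2003 in the co-cultures. The co-cultures were nearly level with each other, and alone library 1 came closest to them. Means were 1719 ± 119 and 1999 ± 5.30 (SD, n = 4 per group), which is a log2 difference of 0.22 (SE 0.05, 95% interval 0.12 to 0.33, adjusted p = 0.0149 in limma). This call was lost without alone library 3 (adjusted p = 0.0544) or co-culture library 1 (adjusted p = 0.0518), while without alone library 1 the log2 fold change was 0.27 (adjusted p = 5.43e-07 in limma).

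Egln3, which encodes PHD3 and is a strongly inducible HIF target in many cell types, had 0 reads in all 8 libraries. A count of 0 allows up to 3 reads per library, or 2.50 to 3.32 normalized counts. Egln2, the gene of PHD1 and the family member that HIF is not known to induce, stood at 486, 424, 440.5 and 417 normalized counts alone and at 383, 393, 392 and 389 with apoptotic cells. It was lower in every co-culture library than in any library of cells alone, with a log2 fold change of -0.18 (SE 0.06) that did not pass (adjusted p = 0.0731 in limma, 0.0375 to 0.17 over the alternatives).

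Kdm3a encodes a histone H3 lysine demethylase that, like the EGLN and P4HA enzymes, belongs to the dioxygenases that use 2-oxoglutarate and iron. Its levels were 469, 558, 535 and 551 normalized counts alone and 464, 513, 533 and 505 with apoptotic cells. The groups overlapped only through alone library 1. Means were 528 ± 40.6 and 504 ± 28.9 (SD, n = 4 per group), which is a log2 difference of -0.07 with a 95% interval of -0.22 to 0.08 (adjusted p = 0.561 in limma). Without alone library 1, which was the lowest of its group, the value was -0.12 (adjusted p = 0.103 in limma). A rise in Kdm3a of more than 5.92% lay outside the interval with all libraries.

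Bnip3 encodes a mitochondrial outer membrane protein that recruits the autophagy machinery to mitochondria. Its levels were 1987, 1787, 1897 and 1858 normalized counts alone and 2245, 2344, 2276 and 2389 with apoptotic cells. All co-cultures exceeded the highest library of cells alone. Means were 1883 ± 83.3 and 2314 ± 65.3 (SD, n = 4 per group), which is a log2 difference of 0.30 (SE 0.04, 95% interval 0.21 to 0.39, adjusted p = 0.00156 in limma), or 22.9%, and it was 0.32 without alone library 1. Its paralog Bnip3l, which encodes the related mitophagy receptor NIX and is also a HIF target, averaged 4624 ± 125 normalized counts alone and 4445 ± 129 in co-culture (log2 fold change -0.06, SE 0.03, adjusted p = 0.321 in limma).

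Ddit4 encodes REDD1, which restrains the growth kinase complex mTORC1. It stood at 708, 595, 595 and 601 normalized counts alone and at 618, 569, 602 and 616 with apoptotic cells. Apart from alone library 1, the groups lay in the same range. Means were 625 ± 55.8 and 602 ± 22.6 (SD, n = 4 per group), which is a log2 difference of -0.05 with a 95% interval of -0.19 to 0.09 (adjusted p = 0.645 in limma). Without alone library 1 the sign turned, to 0.010 with an interval of -0.09 to 0.11.

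Vegfa, the vascular endothelial growth factor that draws new vessels into hypoxic tissue, stood at 1395, 1181, 1180.3 and 1160.4 normalized counts alone and at 1135, 1153, 1134 and 1203 with apoptotic cells. Alone library 1 was again far above the rest, and co-culture library 4 lay above the other 3 libraries of cells alone. Means were 1229 ± 111 and 1156 ± 32.6 (SD, n = 4 per group), which is a log2 difference of -0.08 with a 95% interval of -0.22 to 0.05 (adjusted p = 0.398 in limma). Without alone library 1 it was -0.02 with an interval of -0.10 to 0.05. An increase of Vegfa beyond 3.37% lay outside the interval with all libraries.

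Adm, which encodes the vasodilator peptide adrenomedullin, was the least abundant detected member, with 59 to 87 reads per library. Its levels were 76.9, 56.7, 70.0 and 66.2 normalized counts alone and 85.9, 65.2, 74.7 and 82.2 with apoptotic cells. Only 2 of the co-culture libraries lay above all libraries of cells alone. The log2 fold change was 0.19 (SE 0.13) with a 95% interval of -0.09 to 0.47, wide enough to hold both no change and a rise as large as those of P4ha2 and Bnip3 (adjusted p = 0.367 in limma). It was 0.25 without alone library 1 (adjusted p = 0.179 in limma). No receptor for adrenomedullin was detectable at a level that could be tested: Calcrl, Ramp1, Ramp2 and Ramp3, named after their values were seen, each had a mean under the filter.

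Ndrg1 encodes a cytosolic stress protein that is widely used as a marker of hypoxia and is a substrate of the kinase SGK1. It stood at 5732, 6112, 6059 and 6061 normalized counts alone and at 6044, 6012, 5899 and 5890.2 with apoptotic cells. The co-cultures lay inside the range of the cells alone, but only through alone library 1. Every other library of cells alone lay above every co-culture. Means were 5991 ± 175 and 5961 ± 78.4 (SD, n = 4 per group), which is a log2 difference of -0.01 (SE 0.03, adjusted p = 0.912 in limma). The interval ran from -5.15 to 4.45%, the narrowest among the members. Without alone library 1 the log2 fold change was -0.03 (adjusted p = 0.434 in limma).

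**Figure D2:**
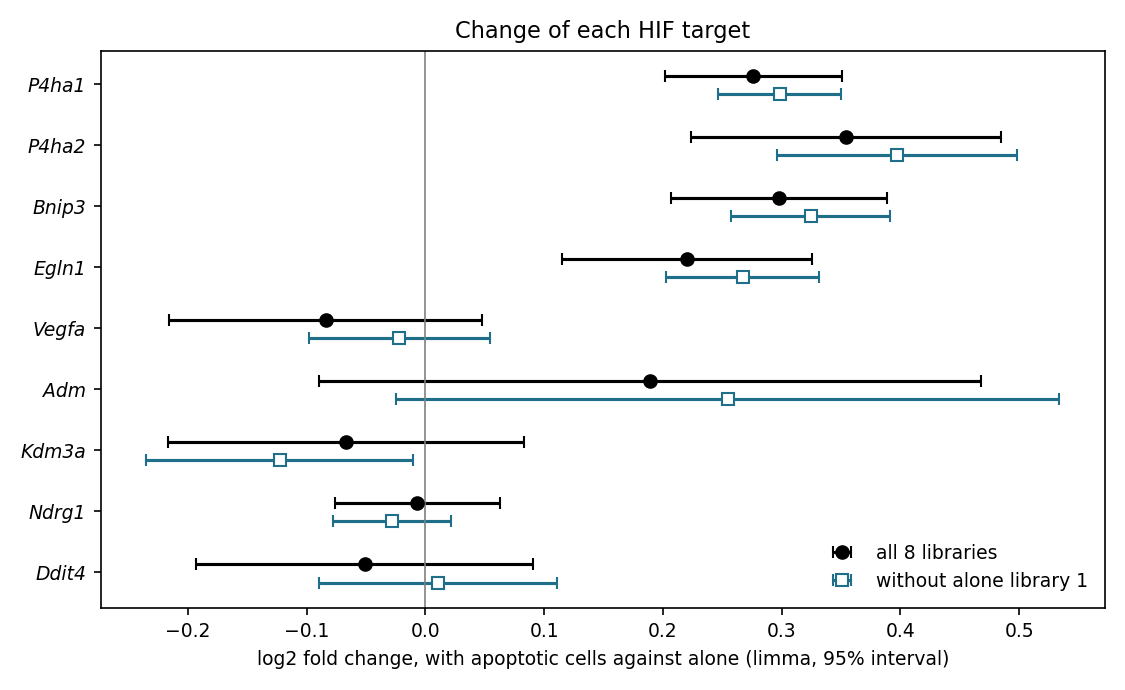
Log2 fold change with apoptotic cells against alone and its 95% interval from limma, for each detected HIF target, with all 8 libraries (filled circles) and without alone library 1 (open squares). The intervals of P4ha1, P4ha2, Bnip3 and Egln1 lie above 0 in both fits, and that of Kdm3a lies below 0 only without alone library 1, where its adjusted p was 0.103.

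The members were set beside each other by the ratio of each pair within a library, which does not depend on the scaling between libraries. Of 36 pairs, 16 had ratios that did not overlap between the groups. Among them were 15 of the 20 pairs of a gene that rose and a gene that did not pass. The ratio of P4ha1 to Ndrg1, for example, shifted by 0.28 on the log2 scale and that of Bnip3 to Vegfa by 0.38. The 20 pairs were formed from calls made in the same libraries, so their ratios largely restate those calls. No share over pairs of all tested genes was taken, and for single genes the share without overlap was 21.2%. Each of the 16 pairs had the smallest p that 8 libraries allow (exact permutation test, two-sided, p = 0.0286). Benjamini-Hochberg adjustment over the 36 pairs gave each of them 0.0643, so none passed. This value is set by the smallest possible p and by how many pairs reached it, so it does not decide whether the ratios differed. Among the 6 pairs of genes that rose, only the ratio of Egln1 to P4ha2 did not overlap between the groups. The pairs that joined Adm to a gene that rose all overlapped.

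Ratios to the nearest paralog or partner were examined for 5 pairs, chosen after the values were seen. Egln1 to Egln2 went from a log2 ratio of 1.96 ± 0.05 to 2.36 ± 0.02 (SD, n = 4 per group), a shift of 0.40 with no overlap between the groups (exact permutation test, two-sided p = 0.0286, adjusted over the 5 ratios 0.0358). Bnip3 to Bnip3l shifted by 0.36 and P4ha1 to P4hb by 0.25, with the same p in each case. Kdm3a to Kdm3b shifted by -0.27 at the same p, and by -0.20 without alone library 1, where no test was run. With all libraries most of this shift lay in Kdm3b, which had a log2 fold change of 0.21 (adjusted p = 0.274 in limma) beside -0.07 for Kdm3a. Without alone library 1 the log2 fold changes were 0.08 for Kdm3b and -0.12 for Kdm3a. P4ha1 to P4ha2 shifted by -0.08, with overlapping groups (exact permutation test, p = 0.143, adjusted p = 0.143). Since the pairs were picked from values already seen, these p-values describe the libraries and are no independent evidence. The same p, the smallest that 8 libraries allow, did not pass when adjusted over the 36 pairs of members, which decides nothing about these ratios.

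**Figure D3:**
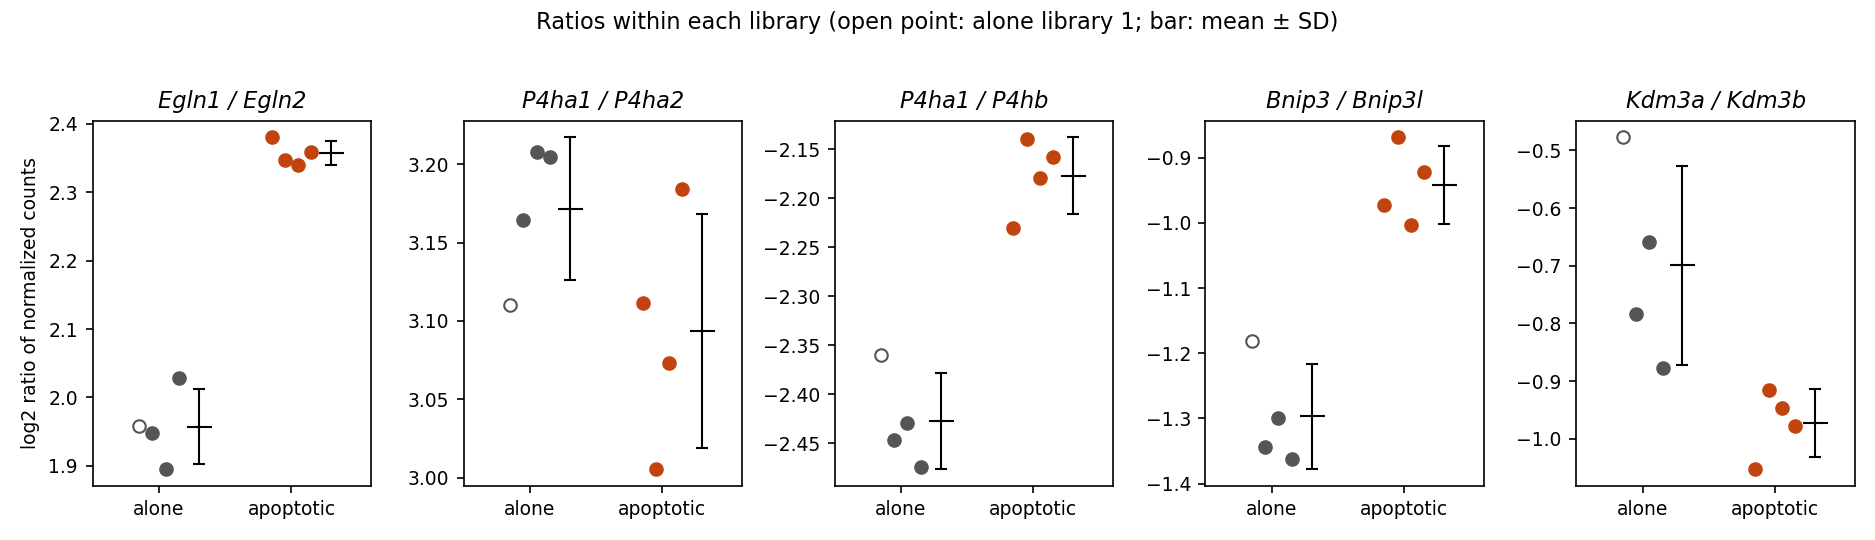
Log2 ratio of normalized counts of 2 genes as points, with bars for the group mean and its SD, for 4 libraries alone and 4 with apoptotic cells. The ratios of Egln1 to Egln2, P4ha1 to P4hb and Bnip3 to Bnip3l are higher in all co-cultures, by 0.40, 0.25 and 0.36, that of Kdm3a to Kdm3b is lower in all, and that of P4ha1 to P4ha2 overlaps.

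Of 15 tested HIF factors and regulators, 2 passed, 1 higher and 1 lower, or 13.3% beside 11.7% of all tested genes. Without alone library 1, 3 were higher and 2 lower, beside 26.0% of all tested genes. Leaving out alone library 2 gave 2 higher and 0 lower, and leaving out any of the others gave 1 higher and 0 lower. Over all genes, leaving out alone library 2 gave 735 higher and 596 lower. The others gave 416 to 617 higher and 356 to 488 lower. Hif1a, the gene of HIF-1 alpha, stood at 3674, 3875, 4033 and 3959 normalized counts alone and at 4511, 4380, 4737 and 4458 with apoptotic cells. The groups did not overlap, and the rise of 0.22 on the log2 scale (SE 0.04, adjusted p = 0.00604 in limma) was of the size seen for Egln1. Vhl, the substrate receptor of the ligase that destroys HIF-1 alpha, averaged 1069 ± 12.9 normalized counts alone and 959 ± 45.5 in co-culture (SD, n = 4 per group) and fell by 0.16 on the log2 scale (SE 0.04, adjusted p = 0.0422 in limma). The Vhl call was lost when alone library 2, 3 or 4 or any of the co-cultures was left out (adjusted p = 0.0625 to 0.119), with a replicate block (0.0863) and with no filter (0.0551).

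Epas1, the gene of HIF-2 alpha, had 0 reads in all libraries, as did Hif3a, named after its values were seen. Arnt averaged 2027 ± 269 normalized counts alone and 2012 ± 34.3 in co-culture (adjusted p = 0.997 in limma), with a log2 fold change of -0.10 without alone library 1 (adjusted p = 0.0341 in limma) and values of either sign when other libraries were left out. Hif1an, which encodes the asparaginyl hydroxylase that blocks HIF from its coactivators, had a log2 fold change of 0.17 (SE 0.09, adjusted p = 0.224 in limma), and 0.09 without alone library 1. The median over the 15 tested factors and regulators was 0.012, beside 0.0015 over all tested genes. It was 0.027 without alone library 1 and ran from 0.0012 to 0.058 over the left-out libraries.

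A further list held 32 other HIF targets outside glycolysis, taken from their known role. Of 24 tested, 4 rose and none fell, 16.7% beside 11.7% of all tested genes, and the median log2 fold change was 0.04. Hmox1, the heme oxygenase gene that is also a target of NRF2, rose by 0.39 on the log2 scale (SE 0.03, adjusted p = 7.82e-05 in limma). Plod2, a lysyl hydroxylase that acts on the same collagen chains as P4ha1 and P4ha2, rose by 0.23 (SE 0.05, adjusted p = 0.0134 in limma) and the endoplasmic reticulum oxidase Ero1a (Ero1l in the table) by 0.28 (SE 0.06). Leaving out alone library 1 raised the count of 4 to 8, and leaving out co-culture library 2 or 3 lowered it to 2 or 1. Over all genes, the count of rises went from 858 to 1811 without alone library 1. It went to 482 or 445 without co-culture library 2 or 3. Plod2 lost its call without co-culture library 3 (adjusted p = 0.0519), and Ero1a without co-culture library 2 or 3 (0.0524 and 0.0616).

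For the glycolytic arm, 9 of 18 tested HIF targets rose and none fell, beside 6.36% of all tested genes higher and 5.31% lower. Their median log2 fold change was 0.10. Slc2a1, the glucose transporter GLUT1, rose by 0.61 on the log2 scale (SE 0.05, adjusted p = 3.68e-05 in limma), a larger point estimate than that of any member. Hk2 (0.32), Pdk1 (0.26) and Hk1 (0.19) rose too, and Ldha had 0.07 (SE 0.04, adjusted p = 0.358 in limma). Ldha had 0.11 without alone library 1 and passed (adjusted p = 0.00155 in limma), and without alone library 2 it had 0.04. The count of 9, beside 858 genes higher over all tested genes, became 12 without alone library 1, beside 1811. It became 4 without alone library 3 (beside 497) or co-culture library 1 (416). Without co-culture library 3 (445) or 4 (479) it was 5. It was 6 with no filter (766) or without co-culture library 2 (482). The counts in brackets are of all genes higher at that setting. Of 14 tested partners and paralogs of the members, none passed by limma, beside 11.7% of all tested genes. Groups did not overlap for 1 of them, Egln2, beside 21.2% of all tested genes. With array weights 2 of these partners and paralogs were lower. Over all genes, array weights gave 1674 lower in place of 716.

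Ddit4 and Vegfa are also known targets of ATF4, a factor that answers amino acid shortage and endoplasmic reticulum stress. Of 13 tested ATF4-related genes, 9 fell and none rose, beside 5.31% of all tested genes lower and 6.36% higher. Their median log2 fold change was -0.27. Atf4 itself averaged 6972 ± 613 normalized counts alone and 4669 ± 57.0 in co-culture (SD, n = 4 per group, adjusted p = 0.000135 in limma), and Trib3, Nupr1 and Ddit3 fell by 1.04, 0.71 and 0.40 on the log2 scale. These values stand beside those of Ddit4 and Vegfa, and their part in them was not tested.

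**Figure D4:**
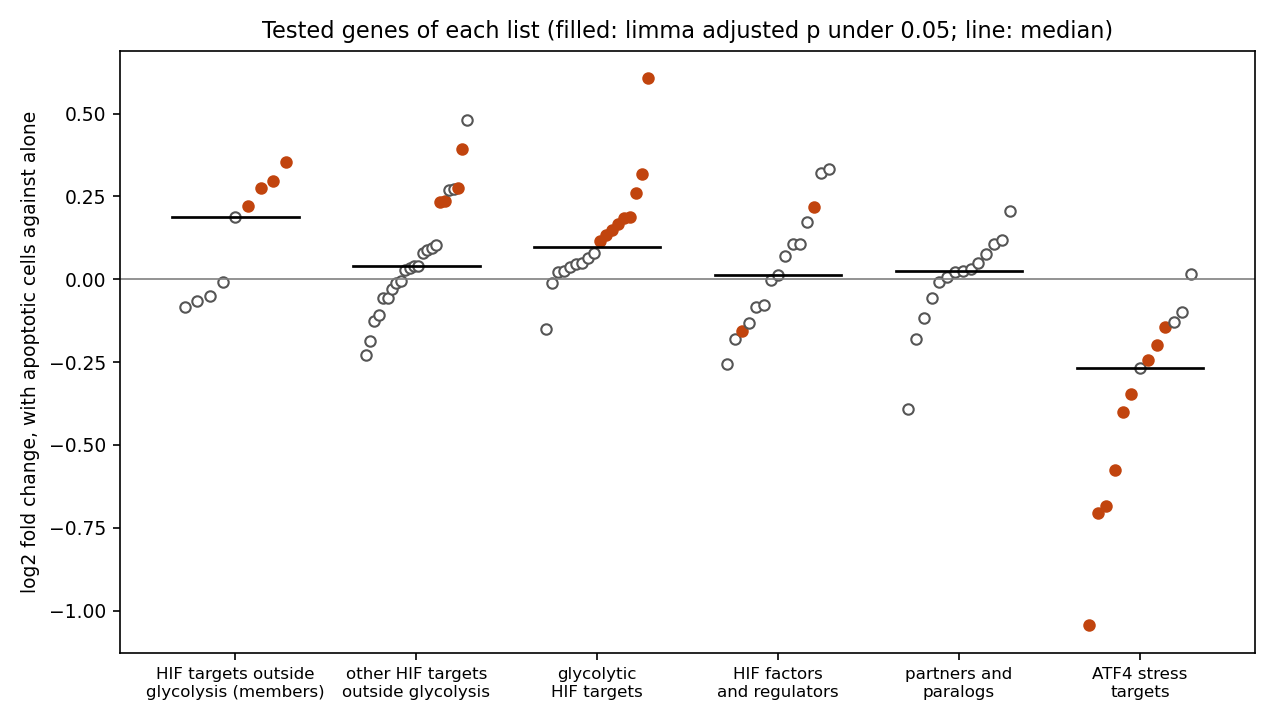
Log2 fold change with apoptotic cells against alone for every tested gene of the members and of 5 related lists, with called genes filled (limma adjusted p under 0.05) and the median as a line. Rises make up the called genes of the members (4 of 9), the other HIF targets (4 of 24) and the glycolytic targets (9 of 18). Falls make up those of the ATF4 list (9 of 13). The HIF factors and regulators had 1 rise and 1 fall among 15, and the partners and paralogs no call among 14. Over all tested genes, 6.36% were called higher and 5.31% lower.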

How the data were processed

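The members and lists were chosen with earlier results of these data known. The submitters' processing notes list FastQC, STAR, featureCounts and DESeq2 but no versions. Genome build, annotation and strand setting: not given in the sources used here. The authors deposited a signal per gene and library that has been scaled by a size factor. In each library 100% of values came out as whole reads within 0.01 reads, so whole reads were recovered. Per the file headers, the deposited table also holds the authors' log2 fold changes, a test score and p-values. A row without a gene name (0.14 to 0.176% of reads) was left out. The 13494 genes whose mean reached 10 normalized counts were tested with limma 3.58.1 (trend) in R 4.3.3 on log2(normalized count + 1), with group as the only term and Benjamini-Hochberg adjustment over all of them, threshold 0.05. Fold changes on this scale understate the change of low genes. The recovered counts, as the authors' deposited values give them, were also tested with edgeR 4.0.16 (quasi-likelihood), which called 838 genes higher and 726 lower, and DESeq2 1.42.0, which called 879 and 716. Further alternatives were the pseudocount, filter, scaling, array weights, a replicate block and leaving out each library. Beside the members, the rule named in each related list up to 4 called genes with the smallest adjusted p, and a fixed set regardless of values. Ratios and member pairs, chosen after seeing the data, were tested by exact permutation. The steps were tested on simulated data with the same spread in every library. The simulation held no library that stands apart as alone library 1 does. Floors for reads cover counting error only, while the limma intervals rest on the spread between libraries. No sequence or genome was used. Some genes that the rules name are not reported here.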

Additional observations from a re-analysis of the deposited data

Results flagged for a closer look

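In 58 groups of 4 libraries, for the members and the other named genes, the highest or lowest library was checked for a gap to its neighbour that, as a share of the group's range, exceeds Dixon's 95% critical value, which chance gives in about 1 in 20 groups. It was found in 5 groups, and in each the library was alone library 1. Vegfa stood at 1395 normalized counts there against 1181 in the next library of cells alone, Ddit4 at 708 against 601 and P4ha2 at 671 against 599.8. Ndrg1 stood lower, at 5732 against 6059, as did Pdk1, at 1026 against 1087.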

How the results depend on the processing

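The 4 rises among the members were called under all alternatives, except Egln1 without alone library 3 or co-culture library 1, where 3 remained called. The replicate numbers did not pair the samples (correlations of same-numbered deviations of -0.03, 0.18, 0.12 and -0.26 over 10774 genes), and a replicate block gave 498 genes higher and 400 lower over all genes, in place of 858 and 716, with the same count of 4 members higher. Array weights gave 1804 and 1674, and leaving out a library 416 to 1811 and 356 to 1694. For other HIF targets outside glycolysis, array weights gave 8 higher and 1 lower, and leaving out a library 1 to 8 higher. Signs turned for Ndrg1 (-0.028 to 0.0031 over left-out libraries), Ddit4 (-0.074 to 0.010, and 0.0053 with array weights) and Arnt (-0.098 to 0.058), none of them called with all libraries, and the cause was not tested. With 59 to 87 reads per library, depth limits what can be said of Adm.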

Other observations

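The 4 co-culture libraries gave Egln1 values that differed by less than counting error alone would give. Their coefficient of variation was 0.265%, where the reads behind them would give about 2.28%. A ratio this low was seen in 0.0649% of 10782 genes with a mean of at least 100 reads, so it is rare but not unique, and it makes the SD of 5.30 a poor guide to the error of that mean. Without alone library 1, the libraries of cells alone were also close for Ndrg1 (0.497%, counting error about 1.27% with all 4 libraries), Ddit4 (0.571%) and P4ha2 (0.609%). These values were singled out after they were seen.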
